A study of Mus musculus with 441 samples.

Results

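The 29 genes described here build cholesterol and fatty acids or control that building. They were taken as a list of named pathway genes, not by a threshold on any value, though results of these data were known when it was made: 16 genes of the sterol arm, 9 of the fatty acid arm and 4 regulators. All 29 were listed among 20996 gene names in the bulk RNA table, 22387 in the table of single mouse embryonic stem cells (mESCs) and 18844 in the table of single neural precursor cells (NPCs). The ChIP-seq table listed 28 of them among 23141 genes; Hmgcs1 was not used there.

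Cholesterol is made from acetyl-CoA through the mevalonate pathway. Early enzymes make farnesyl diphosphate, squalene synthase commits it to sterols, and later enzymes turn lanosterol into cholesterol. Fatty acids are made from the same acetyl-CoA by carboxylation, chain synthesis, elongation and desaturation. The SREBP transcription factors, encoded by Srebf1 and Srebf2, switch on both arms when membrane sterol is low, and the INSIG proteins hold them in the endoplasmic reticulum when sterol is plentiful. SREBPs bind sterol regulatory elements and act together with NF-Y, which binds the letters CCAAT, and with Sp1, which binds GC-rich boxes.

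The study compared v6.5 mESCs in serum+LIF (called serum here) with v6.5 mESCs in 2i+LIF (called 2i). LIF is a cytokine that sustains mESCs, and 2i stands for a pair of inhibitors, of MEK and of GSK3. The remaining mESC population was Dgcr8 -/- mESCs, made in a v6.5 background and kept in serum+LIF; they lack a factor needed to process most microRNAs and are called the knockout. NPCs were nestin-positive cells derived from v6.5 mESCs in vitro, selected in ITSFn and expanded in N2+bFGF on laminin. LIF was therefore shared by the 3 mESC populations, and genotype differed in the knockout alone. The labels do not say whether the knockout was 1 clone. The bulk RNA libraries numbered 2 for serum, 1 for 2i and 2 for the knockout. Single cells filled a plate of 90 and a plate of 93 in serum, 94 under 2i, 84 in the knockout and 54 NPCs. RNA polymerase II and histone marks had 1 library per mESC population.

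The stretch before the transcription start was read for the genes with a RefSeq promoter entry on GRCm38.p6, which were 22 of the 29; Fdps, Fdft1, Sqle, Stard4, Scd1, Scd2 and Fads1 had no entry. Over the 250 bases before the start, on both strands, CCAAT stood in the promoters of 18 of the 22. The split by arm was 12 of 12 in the sterol arm, 4 of 4 among regulators and 2 of 6 in the fatty acid arm, where Fasn and Acss2 held it and Acaca, Acly, Elovl6 and Fads2 did not. Of all 27025 genes with an entry, 37.5% held CCAAT, and of the 6272 that were also tested in bulk, 43% did. The GC box GGGCGG stood in 11 of 12 sterol, 4 of 4 regulator and 3 of 6 fatty acid promoters, against 35.4% of all genes and 65.1% of those tested in bulk. The element TCACNCCAC stood in 1 of the 22, Hmgcs1, against 1.22% of all genes. A gene counted as holding a motif when any of its listed starts did. A match is a description of letters and no evidence of binding.

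Of these promoters 5 are printed, each of 250 bases and 5′ to 3′ on the strand of the gene, because they set the sterol arm and Insig1 beside Fasn. Capitals mark CCAAT (or ATTGG, its other strand) and, in Hmgcs1, TCACNCCAC. On GRCm38.p6 they lie at chr13:119690101-119690350 (+ strand) for Hmgcs1, chr13:8885356-8885605 (+ strand) for Idi1, chr5:4104698-4104947 (- strand) for Cyp51, chr5:28071162-28071411 (+ strand) for Insig1 and chr11:120824548-120824797 (- strand) for Fasn.
Hmgcs1: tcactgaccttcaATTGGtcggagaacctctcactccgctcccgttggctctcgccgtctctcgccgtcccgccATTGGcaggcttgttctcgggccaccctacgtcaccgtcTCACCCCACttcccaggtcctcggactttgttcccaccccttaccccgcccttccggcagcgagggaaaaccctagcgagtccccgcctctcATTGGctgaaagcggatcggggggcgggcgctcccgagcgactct
Idi1: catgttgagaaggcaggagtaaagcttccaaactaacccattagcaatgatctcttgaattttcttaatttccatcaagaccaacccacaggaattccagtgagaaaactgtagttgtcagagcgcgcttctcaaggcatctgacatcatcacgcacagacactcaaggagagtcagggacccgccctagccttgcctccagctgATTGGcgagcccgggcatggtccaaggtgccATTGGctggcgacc
Cyp51: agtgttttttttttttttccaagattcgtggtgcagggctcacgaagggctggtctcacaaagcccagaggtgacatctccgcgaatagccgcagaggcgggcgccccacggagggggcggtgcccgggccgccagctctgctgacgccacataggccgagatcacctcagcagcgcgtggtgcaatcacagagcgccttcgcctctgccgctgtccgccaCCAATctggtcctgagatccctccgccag
Insig1: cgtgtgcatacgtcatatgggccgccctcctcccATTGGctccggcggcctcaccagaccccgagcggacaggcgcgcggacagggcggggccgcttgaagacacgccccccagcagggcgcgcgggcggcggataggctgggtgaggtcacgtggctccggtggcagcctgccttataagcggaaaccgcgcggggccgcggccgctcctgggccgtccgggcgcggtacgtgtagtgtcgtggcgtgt
Fasn: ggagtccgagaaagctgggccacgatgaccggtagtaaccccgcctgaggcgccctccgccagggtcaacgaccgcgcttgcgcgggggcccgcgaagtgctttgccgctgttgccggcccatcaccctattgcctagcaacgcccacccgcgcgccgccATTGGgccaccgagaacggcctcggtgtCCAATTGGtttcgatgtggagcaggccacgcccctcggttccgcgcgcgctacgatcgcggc
Hmgcs1, which makes HMG-CoA, held CCAAT at 3 places and its TCACNCCAC at 137 to 129 bases before the start. Idi1 held CCAAT at 2 places and Cyp51 and Insig1 at 1 each. Fasn held 3 matches, of which a pair overlapped on opposite strands.

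Some facts of the whole series bear on every value. The RNA tables held the natural log of TPM + 1; TPM is a length-normalised share of transcripts, so levels of different genes can be compared and the read depth is unknown. At TPM 1 or more, 7560 to 8365 genes were detected in the bulk serum libraries, 8989 under 2i; the knockout libraries had 10818 and 11054. The median gene rose with them: on the log2(TPM + 1) scale it stood 0.20 higher in bulk 2i and 0.92 higher in the bulk knockout than in serum, and 1.24 and 1.38 higher in the plate means. Levels were therefore centred on the median gene of each library before the fit, and the members called on either scale whose direction differed under TPM as deposited are given here or in the closing section. After centring, the median gene stood at -0.05 (2i) and -0.20 (knockout) in bulk and at -0.07 and -0.16 in the plates. Dgcr8 was at 10.6 and 10.3 TPM in bulk serum, 4.66 under 2i and 4.03 and 2.20 in the knockout, and at 72.5 and 27 in the serum plates, 34 in the 2i plate and 16 in the knockout plate. It was thus lowest in the knockout in both data sets but not absent there, and bulk knockout replicate 1 lay close to the 2i library. The 5 mESC markers were above TPM 1 in every mESC library and plate, and summed to 17062 and 17308 TPM in bulk serum, 38232 under 2i, with 36995 and 39724 for the knockout. Fibroblast or feeder markers summed to at most 1.97 TPM there. Neural precursor markers (2 of 6 at TPM 1 or more in the knockout) summed to 4.38 and 4.07 TPM in bulk serum, 20.6 under 2i and 93.3 and 86.7 in the knockout. Neuron markers summed to 156 and 179 TPM in bulk serum, 107.5 under 2i, with 401 and 369 for the knockout. Only 2 of the 5 listed neuron markers were at TPM 1 or more in each bulk library. Dcx was at 0 under 2i and in both knockout libraries. Trophoblast markers summed to 138.5 and 159 TPM in bulk serum (3 of 6 at TPM 1 or more), 6.96 under 2i, with 12.1 and 9.04 for the knockout, and to 34 and 132 in the serum plates against 19.2 and 21.6 in the 2i and knockout plates. The part of these marker lists in the members' changes was not tested.

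In bulk RNA the genes of both arms stood higher under 2i than in serum. Centred on the median gene, 19 of the 28 members tested rose, 9 did not pass the test and 0 fell; Srebf1, at 0.43 to 1.03 TPM, did not pass the filter on low values. Over all 10078 genes tested, 13.7% rose and 18.6% fell. Tm7sf2 and Fads2, under TPM 1 in bulk serum, passed the filter on low values only through the 2i and knockout libraries. Acss2, under TPM 1 in serum and 2i, passed it only through the knockout. The bulk counts here and below include these genes among those tested. The calls came from limma with Benjamini-Hochberg adjustment over all genes at 0.05. The sterol arm had 11 of 16 genes called, with a median log2 change of 1.09, and the fatty acid arm 6 of 9, also with a median of 1.09, beside a median of -0.05 over all genes. With TPM as deposited, 20 members rose and 0 fell, against 20.4% and 11.7% of all genes. In bulk samples fewer cells of a type and less RNA per cell cannot be told apart. The labels do not say that replicate libraries were separate cultures, so p-values measure the spread between these libraries, and the lone 2i library was taken to have the spread of the replicated pairs.

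**Figure D1:**
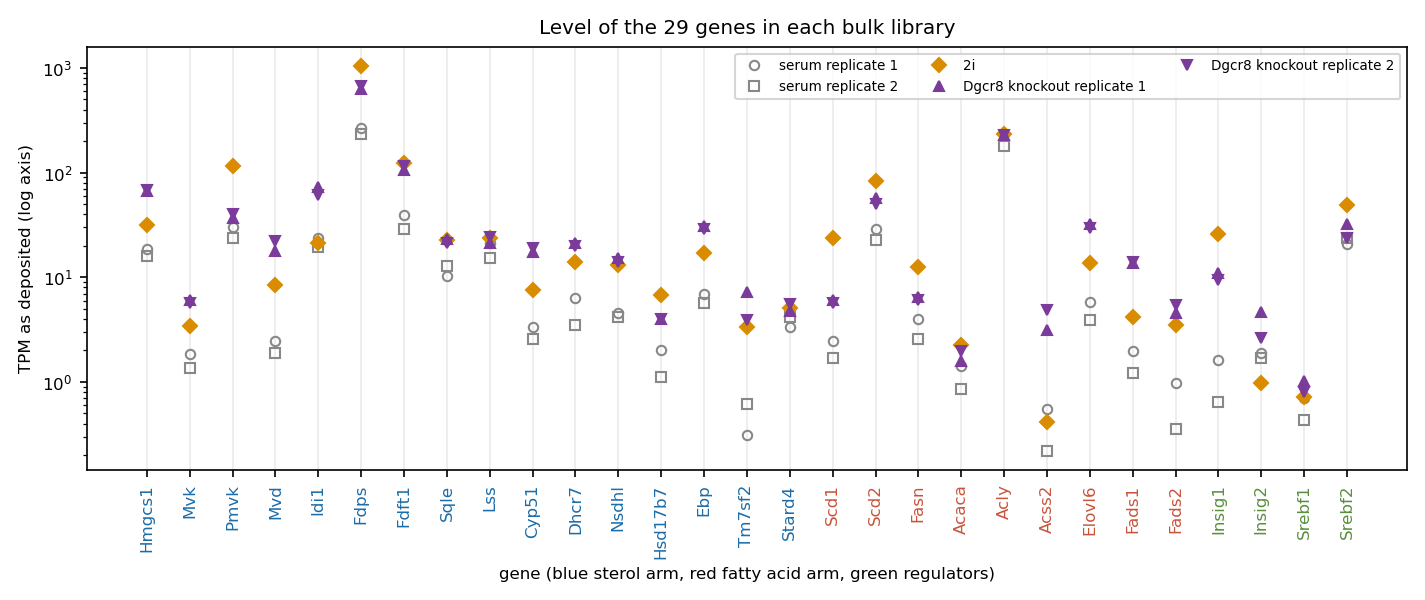
TPM of each of the 29 genes (log axis) in the 5 bulk libraries; grey outlines are serum, orange diamonds 2i and purple triangles the knockout. For Insig1 the 2i library (25.8) lies above both knockout libraries (10.9 and 9.44), which lie above both serum libraries (1.64 and 0.65).

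Among the early mevalonate enzymes, Pmvk, which phosphorylates phosphomevalonate, was at 30.1 and 23.9 TPM in serum, 115 under 2i and 36.6 and 40.2 in the knockout. The 2i library stood well above the other 4, whose ranges lay close together. Its centred log2 change under 2i was 1.81 ± 0.17 (SE; limma adjusted p = 0.000426), and 2i also exceeded the knockout by 2.43 ± 0.17 (limma adjusted p = 9.23e-05). Fdps, the synthase of farnesyl diphosphate and the most abundant member in bulk, was at 265 and 234 TPM in serum, 1039 under 2i and 635 and 671 in the knockout. The 3 groups did not overlap in TPM. After centring, Fdps rose under 2i by 1.81 ± 0.16 (limma adjusted p = 0.000308), whereas its knockout change of 0.27 ± 0.13 did not pass the test (limma adjusted p = 0.113). That call depended on scaling: Fdps was higher in the knockout when centred on the median ratio (0.47, limma adjusted p = 0.0123) and as deposited (1.39, limma adjusted p = 9.34e-07). Mvd, the decarboxylase that yields isopentenyl diphosphate, had another order: 2.47 and 1.91 TPM in serum, 8.38 under 2i and 18 and 22.1 in the knockout.

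Mvd thus rose under 2i (1.31 ± 0.24 log2, limma adjusted p = 0.00574) and in the knockout (1.60 ± 0.19, limma adjusted p = 0.000403), and the difference between 2i and the knockout (-0.29 ± 0.24) did not pass the test. Idi1, the isomerase of the next step, was not called under 2i: it was at 23.9 and 19.6 TPM in serum, 21.3 under 2i and 73.4 and 61.1 in the knockout. The 2i value lay between the serum values, and both knockout values lay above them. Its knockout change was 0.46 ± 0.14 log2 (limma adjusted p = 0.0253), a call that was lost without either serum library, without knockout replicate 1, with a pseudocount of 0.1 and with no trend. Hmgcs1 rose in both comparisons, from 18.8 and 16 TPM in serum to 31.6 under 2i and 66.2 and 68.1 in the knockout, with centred log2 changes of 0.58 ± 0.16 and 0.77 ± 0.13. The 2i call on Hmgcs1 (limma adjusted p = 0.0334) was lost without serum replicate 1, without either knockout library, with a pseudocount of 0.1 and with no trend. Mvk, mevalonate kinase, was called in neither comparison, at 1.85 and 1.37 TPM in serum, 3.44 under 2i and 6.10 and 5.71 in the knockout.

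Of the genes committed to sterols, Fdft1, squalene synthase, was at 39.5 and 29 TPM in serum, 122 under 2i and 107 and 116 in the knockout. Its centred log2 change was 1.57 ± 0.17 under 2i (limma adjusted p = 0.000774) and 0.57 ± 0.14 in the knockout (limma adjusted p = 0.0106). In TPM the knockout libraries lay close below the 2i library, and as deposited the log2 changes were 1.82 and 1.69. The centred knockout call on Fdft1 was lost without knockout replicate 2. Sqle, squalene epoxidase, and Lss, lanosterol synthase, were not called under 2i, with changes of 0.67 ± 0.25 and 0.13 ± 0.20. Of the later enzymes, Cyp51, Nsdhl, Hsd17b7, Ebp and Dhcr7 were called under 2i, with log2 changes from 0.87 to 1.37. In the knockout, Cyp51 (1.16 ± 0.18), Ebp (0.95 ± 0.15) and Dhcr7 (0.78 ± 0.19) rose, while Nsdhl (0.41 ± 0.17) and Hsd17b7 (-0.13 ± 0.21) did not pass the test. Tm7sf2 was called higher in both comparisons, but it passed the filter on low values only through the 2i and knockout libraries. The Tm7sf2 calls were lost without serum replicate 1, and in the knockout also without knockout replicate 1. Stard4, which carries cholesterol between membranes, showed 0.11 ± 0.29 under 2i.

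In the fatty acid arm the desaturases Scd1 and Scd2, which place the first double bond in saturated chains, separated 2i from the other libraries. Scd1 was at 2.46 and 1.70 TPM in serum, 23.7 under 2i and 6.02 and 5.71 in the knockout, and Scd2 at 29.1 and 22.7, 84, and 57.8 and 49.8 TPM. Both were highest under 2i, lowest in serum and without overlap in TPM. Their centred log2 changes under 2i were 2.76 ± 0.22 (limma adjusted p = 0.000222) and 1.42 ± 0.17 (limma adjusted p = 0.00102), and those in the knockout were 0.05 ± 0.18 and -0.09 ± 0.13, neither called. Fasn, fatty acid synthase, followed the same order: 4.04 and 2.59 TPM in serum, 12.5 under 2i and 6.43 and 6.03 in the knockout. For Scd1, Scd2 and Fasn the direct comparison of 2i with the knockout gave 2.72 ± 0.22, 1.51 ± 0.17 and 1.77 ± 0.23 log2 (limma adjusted p = 0.000153, 0.000458 and 0.000946).

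The elongase Elovl6 and the polyunsaturated desaturases Fads1 and Fads2 had the opposite order of 2i and knockout in TPM. Elovl6 was at 5.87 and 3.94 TPM in serum, 13.8 under 2i and 32 and 29.7 in the knockout, and Fads1 at 1.99 and 1.21, 4.20, and 13.8 and 14.1 TPM. Their centred changes were 1.09 ± 0.20 and 0.76 ± 0.23 log2 under 2i and 1.33 ± 0.16 and 1.42 ± 0.19 in the knockout, all called; 2i and knockout did not differ past the test (limma adjusted p = 0.358 and 0.0512), though as deposited both stood lower under 2i (-1.10 and -1.52). The 2i call on Fads1 was lost without serum replicate 2 or either knockout library. The enzymes that supply acetyl-CoA and carboxylate it were not called under 2i. Acly, which makes acetyl-CoA from citrate, was among the most abundant members at 236 and 181 TPM in serum, 236 under 2i and 230.3 and 229.8 in the knockout. Its 2i change was -0.06 ± 0.15. Acss2, which makes acetyl-CoA from acetate, was at 0.56 and 0.22 TPM in serum, 0.42 under 2i and 3.16 and 4.85 in the knockout, so it was higher in both knockout libraries than in any other. Acaca, acetyl-CoA carboxylase, was at 0.87 to 2.24 TPM over the 5 libraries.

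Insig1, which is itself a known SREBP target, had the largest centred change of the 29 under 2i. It was at 1.64 and 0.65 TPM in serum, 25.8 under 2i and 10.9 and 9.44 in the knockout. The groups did not overlap, and the changes were 3.43 ± 0.26 log2 under 2i (limma adjusted p = 0.000179) and 1.30 ± 0.21 in the knockout (limma adjusted p = 0.00173), with 2i above the knockout by 2.14 ± 0.26 (limma adjusted p = 0.000708). Insig2, its partner gene, did not follow: it was at 1.89 and 1.71 TPM in serum, 0.97 under 2i and 4.71 and 2.61 in the knockout, and passed neither test. Srebf2, which encodes the SREBP with the strongest link to sterol genes, was at 20.7 and 23.7 TPM in serum, 49.2 under 2i and 32.2 and 23.7 in the knockout. It rose under 2i by 0.86 ± 0.25 log2 (limma adjusted p = 0.0348), a call lost without serum replicate 1, with a pseudocount of 0.1 and with no trend. The knockout range of Srebf2 began at the upper serum value.

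In the bulk knockout the members were mixed once centred: 13 rose, 6 fell and 9 were not called, where 21.8% of all genes rose and 36.5% fell. The 2i and knockout comparisons share the serum libraries, so their values stand side by side here and no overlap is drawn from them. The sterol arm had 8 higher and 3 lower with a median of 0.44, and the fatty acid arm 4 higher and 2 lower with a median of 0.05, beside -0.20 over all genes. Those that fell were Acly (-0.96 ± 0.12), Lss (-0.81 ± 0.16), Srebf2 (-0.81 ± 0.20), Stard4 (-0.75 ± 0.24), Acaca (-0.75 ± 0.21) and Pmvk (-0.62 ± 0.14), and all 6 turned to positive changes with TPM as deposited, under which 23 members rose and 0 fell (62.5% and 11.7% of all genes). None of these 6 therefore had a direction that held on both scales. Leaving out 1 library also ended the centred calls on Acaca (either serum library or knockout replicate 1), Stard4 (serum replicate 2 or either knockout library), Pmvk (knockout replicate 1) and Srebf2 (knockout replicate 2). Among those that rose, the calls on Acss2 and Fads2 were lost without serum replicate 2 or knockout replicate 2, and that on Acss2 also without serum replicate 1. Without knockout replicate 1 the centred count of lower members went from 6 to 3. In the direct comparison 15 members stood higher under 2i than in the knockout and 2, Acss2 and Idi1, stood lower (Acss2 not without serum replicate 1 or knockout replicate 2, Idi1 not without knockout replicate 1), where 29.7% of all genes were higher and 19.8% lower. With TPM as deposited those counts were 7 and 9, beside 11.9% and 49.1% of all genes; Pmvk, Fdps, Scd1, Scd2, Fasn, Insig1 and Srebf2 were the 7.

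**Figure D2:**
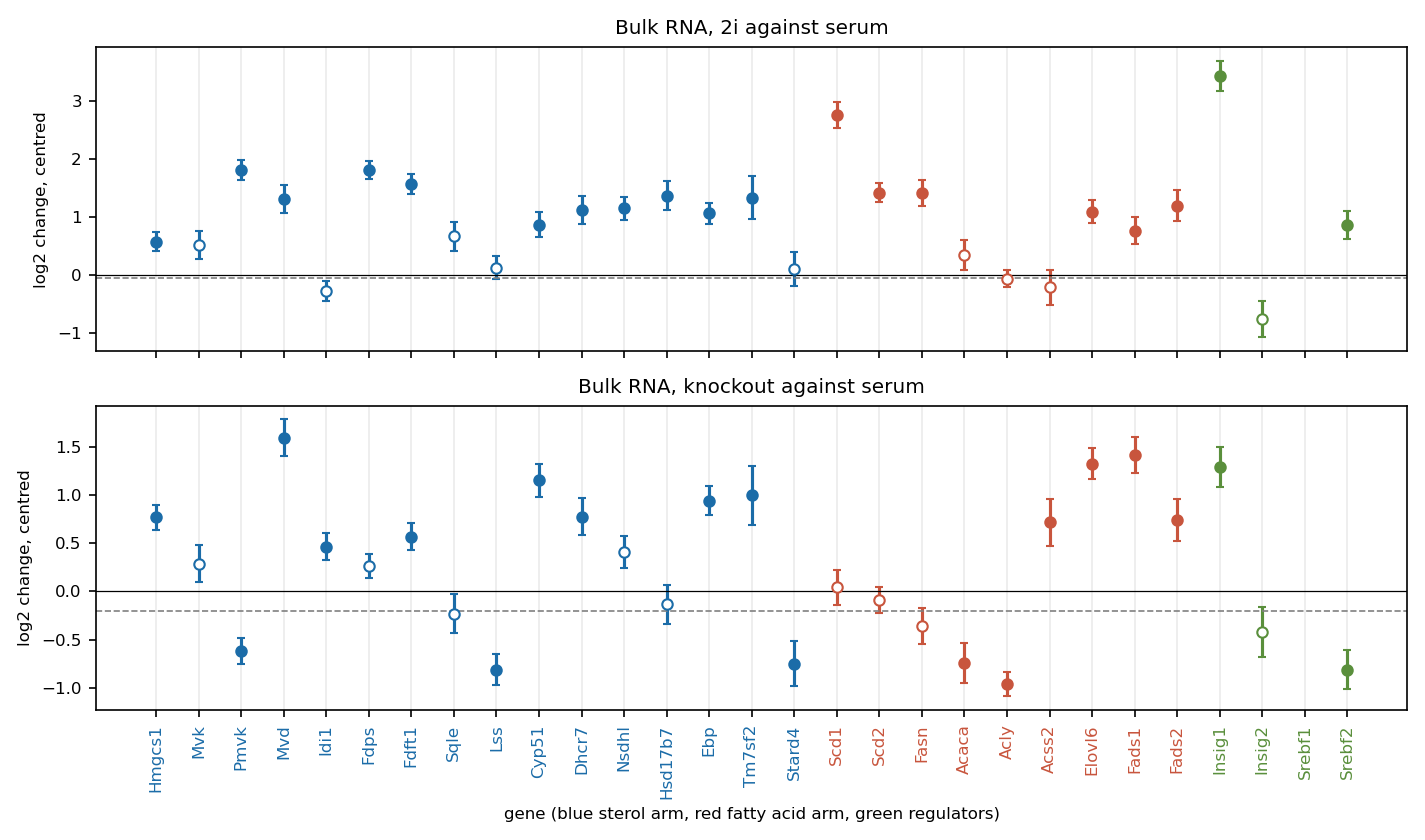
Centred log2 change of the members in bulk RNA for 2i (top) and the knockout (bottom) against serum, with the SE from limma; filled points passed the test, open points did not, and the dashed line is the median gene. In 2i 19 filled points lie above 0 and none below, and in the knockout 13 lie above and 6 below.

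The same genes were read a second time in the single cells, as the mean TPM over the cells of each plate. On the centred scale 24 of 29 members stood above both serum plates under 2i and 3 below both, where 40% and 47.4% of 12394 genes did; in the knockout it was 20 above and 7 below, where 38.5% and 51.5% did. In the limma fit on the 4 plate means, 20 members rose and 2 fell under 2i (14.3% and 20.7% of all genes), and 13 rose and 2 fell in the knockout (17.5% and 28.3%). With TPM as deposited, 25 rose and 0 fell under 2i (39% and 1.82% of all genes), and 24 rose and 1, Stard4, fell in the knockout (50% and 2.97%). Quantile normalisation of the plate means left 4 members called higher under 2i and 8 in the knockout. Of all 12394 genes, 784 and 1608 were then called higher, against 1767 and 2170 after centring. The fit had 1 residual degree of freedom, from the serum pair, so the p-values of plates lean on the spread of other genes. The labels name the bulk serum libraries after the serum plates, so bulk and plates are not taken as independent. Under 2i 17 members were called higher in both bulk and plates, where 8.1% of the 9925 genes tested in both were. In the knockout 8 were (Dhcr7, Ebp, Elovl6, Fads1, Fads2, Insig1, Mvd and Tm7sf2), where 12.5% of genes were. Called lower in both were 0 members under 2i (7.22% of genes) and 2, Srebf2 and Stard4, in the knockout (21.2%). These plate counts include Fads2, Tm7sf2 and Srebf1, and the counts of 17 and 8 include Fads2 and Tm7sf2. These genes were under TPM 1 in both serum plates and passed the filter only through the 2i and knockout plates.

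Plate means of Scd2 were 5.90 and 5.32 TPM in serum, 111 under 2i and 44 in the knockout. Scd1 went from 2.12 and 1.77 in serum to 47.2 under 2i and 14.3 in the knockout. Their centred log2 changes under 2i, 2.76 ± 0.26 and 2.72 ± 0.24, were the largest of the members with a level in serum (limma adjusted p = 3.12e-05 and 2.17e-05). Tm7sf2, a sterol reductase, was at 0.555 and 0.94 TPM in serum, 24.4 under 2i and 10.5 in the knockout. Because it passed the filter only through the 2i and knockout plates, no fold is read from it. Insig1 was at 4.30 and 3.58 TPM in serum, 36.4 under 2i and 38.1 in the knockout. The 2i and knockout plates lay close for Insig1, unlike the bulk libraries, where 2i was above both knockout values. Acly, not called in bulk 2i, rose in the plates: 27.5 and 18.5 TPM in serum, 140 under 2i and 127 in the knockout, a centred change of 1.26 ± 0.29 under 2i (limma adjusted p = 0.00699) and 0.90 ± 0.29 in the knockout (limma adjusted p = 0.0286), where bulk gave a lower call.

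Fads2 was listed at 0 in all 183 serum cells, so it gets no fold; its plate mean was 9.02 TPM under 2i and 7.24 in the knockout, with 81 of 94 and 38 of 84 cells at TPM 1 or more. Bulk serum held Fads2 at 0.97 and 0.36 TPM. Because bulk serum held it, the 0 in the cell table is not read as absence. In the 183 serum cells 9634 names were at 0 throughout, and each other name was above 0 in at least 10 cells. Whether the deposited cell table had a cut on detection is not stated. Stard4 and Srebf2 were the members called lower in the plates, while some others had negative changes that were not called. Stard4 was at 25.8 and 23.8 TPM in the serum plates, 21.9 under 2i and 9.46 in the knockout, with centred changes of -1.48 ± 0.26 (limma adjusted p = 0.00122) and -2.85 ± 0.26 (limma adjusted p = 1.58e-05). Srebf2 was at 240 and 313 TPM in the serum plates, 197 under 2i and 123 in the knockout, changes of -1.79 ± 0.40 and -2.69 ± 0.40, while bulk serum held it at 20.7 and 23.7 TPM. Its 2i change was positive in bulk and negative in the plates, both called, and as deposited the plate changes of Srebf2 did not pass the test (limma adjusted p = 0.245 and 0.0671). For Stard4 the 2i plate change was -0.17 as deposited (limma adjusted p = 0.55), and its call was also lost with quantile normalisation, while the knockout call held in the 11 alternatives with a p.

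**Figure D3:**
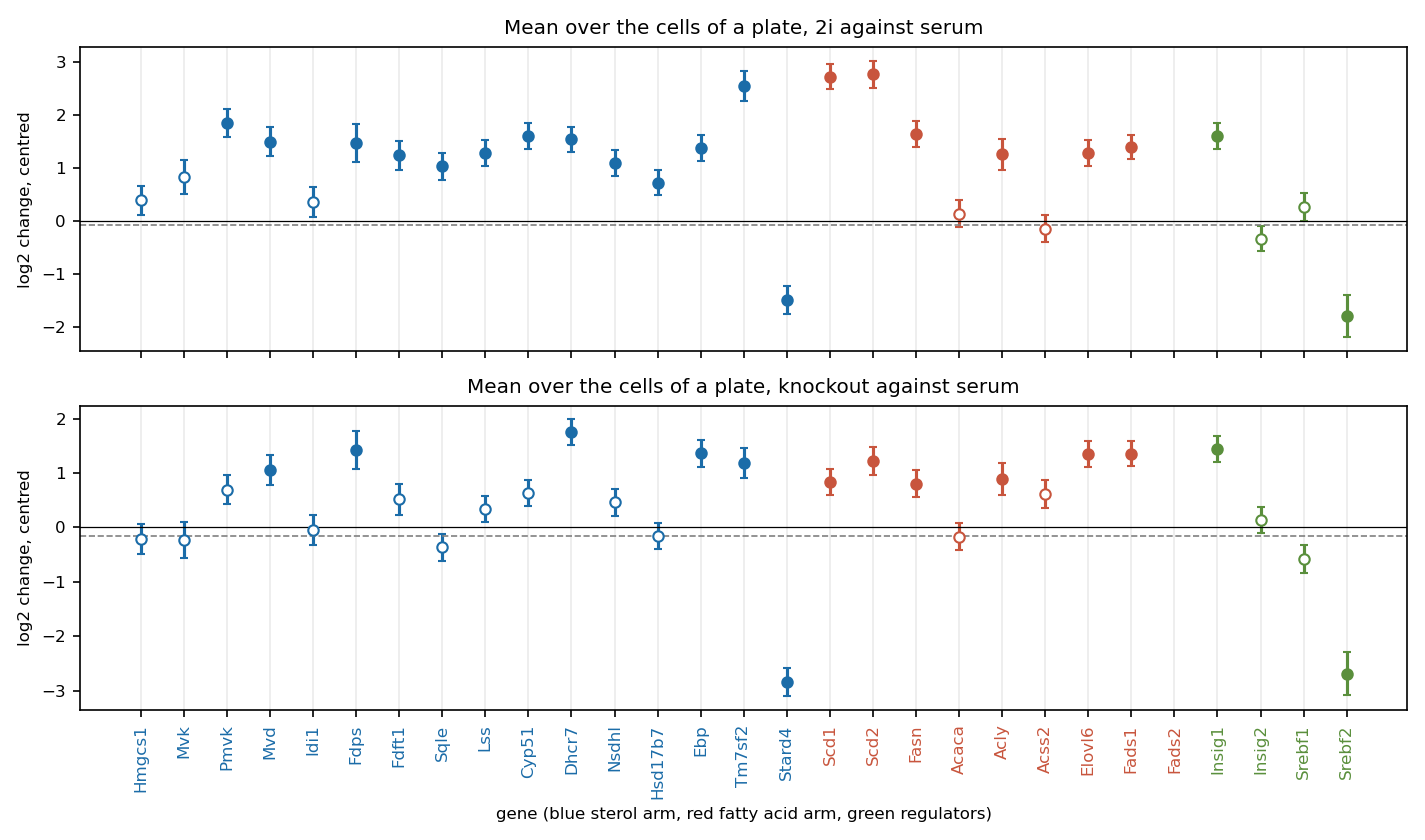
Centred log2 change of the members in plate means for 2i (top) and the knockout (bottom) against the 2 serum plates, with the SE from limma; filled points passed the test and Fads2, listed at 0 in serum, is left out. Srebf2 (-1.79 and -2.69) and Stard4 (-1.48 and -2.85) are the called points below 0 in both.

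Genes around the pathway were read from lists written for this purpose, against the all-gene shares in bulk of 13.7% higher and 18.6% lower under 2i and 21.8% and 36.5% in the knockout. Of 13 tested genes in other sterol synthesis and uptake, 2 rose and 2 fell in bulk 2i (median 0.26), and 2 rose and 6 fell in the knockout (median -0.20). Npc2, which exports cholesterol from lysosomes, rose in both (2.33 ± 0.15 and 1.60 ± 0.13 log2). Of 14 other fatty acid and lipid genes, 3 rose and 1 fell under 2i and 6 rose and 2 fell in the knockout. In the plates 6 of 14 rose and 0 fell under 2i (median 0.66), where 14.3% and 20.7% of all genes did. In the knockout plate 5 rose and 0 fell (median 0.49), where 17.5% and 28.3% did. Of 14 other sterol synthesis and uptake genes tested in the plates, 3 rose and 1 fell under 2i (median -0.08). In the knockout plate 3 of them rose and 3 fell (median -0.21). In bulk, Slc25a1, which exports citrate from mitochondria, rose in both comparisons (2.34 ± 0.23 and 1.03 ± 0.19). So did Lpin1, a phosphatidate phosphatase (1.60 ± 0.23 and 1.84 ± 0.19), and Thrsp, a lipogenic gene (1.27 ± 0.28 and 2.23 ± 0.23). Of 7 genes of the non-sterol isoprenoid branch, 1 rose and 1 fell in bulk 2i and 2 rose and 3 fell in the bulk knockout. Of 8 tested in the plates, 1 rose and 1 fell under 2i, and 0 rose and 3 fell in the knockout. As deposited, no gene of these lists fell in the bulk knockout, where 11.7% of all genes did.

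Oxidation and efflux genes were set against the same all-gene shares. Of 12 genes of fatty acid oxidation, 1 rose and 3 fell in bulk 2i (median -0.50), and 8 rose and 0 fell in the knockout (median 0.92). Cpt1a, which commits fatty acids to mitochondrial oxidation, rose in both (1.35 ± 0.22 and 2.72 ± 0.18 log2), and 9 of the 12 stood lower under 2i than in the knockout with 0 higher, where 19.8% of all genes were lower. Of 5 tested genes of sterol efflux and storage, 0 rose and 2 fell under 2i and 4 rose and 0 fell in the knockout. Abcg1, a sterol exporter, had changes of -0.84 ± 0.24 and 2.60 ± 0.20, and Soat1, which esterifies cholesterol for storage, fell under 2i (-1.65 ± 0.26). As deposited the 12 oxidation genes and the 5 efflux genes were called higher in the knockout, where 62.5% of all genes were. For 2i the oxidation counts were 2 higher and 2 lower, and the efflux counts 1 higher and 1 lower. Of all genes, 20.4% were higher and 11.7% lower in 2i on that scale.

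Within a plate, cells that were high in 1 sterol gene tended to be high in others. The mean pairwise Spearman correlation within the sterol arm was 0.158 and 0.108 on the serum plates, 0.0715 under 2i, 0.123 in the knockout and 0.157 in NPCs. Within the fatty acid arm it was 0.0867, 0.0838, 0.0969, 0.0731 and 0.0913 in the same order, and across the arms 0.109, 0.0692, 0.0523, 0.0928 and 0.119. Pairs of all genes gave 0.0354, 0.0282, 0.00424, 0.0135 and 0.0284. These are descriptions over 90, 93, 94, 84 and 54 cells that share a chip and differ in the number of genes detected. Members at TPM 1 or more in at least 20% of cells entered, which were 15 or 16 sterol and 8 or 9 fatty acid genes. The sterol mean exceeded the fatty acid mean on 4 plates and lay below it under 2i, and on serum plate 2 it also lay below (0.123 against 0.187) when genes had to be in 50% of cells.

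**Figure D4:**
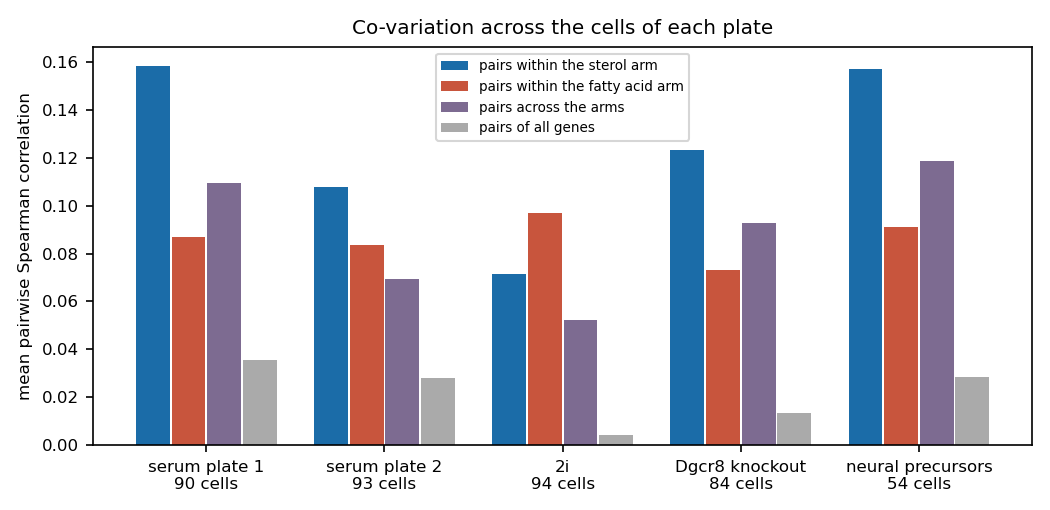
Mean pairwise Spearman correlation across the cells of each plate (bars from 0) for pairs within the sterol arm, within the fatty acid arm, across the arms, and of all genes. The sterol bar is highest in the serum, knockout and NPC plates (0.108 to 0.158) and is below the fatty acid bar under 2i (0.0715 against 0.0969).

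Over the pairs with a value on each of the 5 plates, the highest minimum belonged to Hmgcs1 with Fdft1 (0.507 and 0.307 in serum, 0.242 under 2i, 0.275 in the knockout and 0.405 in NPCs) and then to Fdps with Fdft1 (0.433, 0.420, 0.240, 0.345 and 0.544). The top pair across the arms was Fdft1 with Scd1, at 0.231, 0.285, 0.287, 0.340 and 0.404. Leading pairs differed by plate: Idi1 with Fdps led in the knockout (0.512), Hmgcs1 with Fdps in NPCs (0.599), Pmvk with Fdps on serum plate 2 (0.424) and Hmgcs1 with Lss under 2i (0.399), where Scd1 with Scd2 (0.374) came next. These pairs were picked as the highest of 351 or 406 pairs per plate. Given the number of genes detected, the leading pair of each plate had a partial correlation from 0.390 (Pmvk with Fdps on serum plate 2) to 0.605 (Hmgcs1 with Fdps in NPCs).

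Among regulators, Insig1 varied with the sterol genes on the serum and knockout plates, with mean correlations to the sterol arm of 0.202, 0.183 and 0.174, and less so under 2i (0.0672) and NPCs (0.0989). Srebf2 did not: its mean correlation to the sterol arm was -0.0498, -0.0798, -0.0241, -0.0505 and 0.0518 over the 5 plates. Stard4 also stood apart from the arm it was listed in, with means from -0.0459 to 0.0241. Taken as a mean of log2(TPM + 1) over its genes, the sterol level of a cell went with its fatty acid level at a Spearman correlation of 0.509 and 0.304 in serum, 0.264 under 2i, 0.477 in the knockout and 0.614 in NPCs. The sterol level also went with the number of genes detected, at 0.411, 0.151, 0.0244, 0.461 and 0.244, and the part of detection in the correlation of the arm levels was not tested. The range of that sterol level among cells was 1.21 to 4.16 on serum plate 1, 4.35 to 5.97 under 2i, 2.60 to 5.59 in the knockout and 1.09 to 5.97 in NPCs.

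The arms also differed in how much single genes varied between cells. The SD over cells of log2(TPM + 1) was compared with a running median over genes with a similar mean. Of sterol genes, 11 of 15 and 10 of 14 lay above it on the serum plates, 10 of 16 under 2i, 10 of 16 in the knockout and 11 of 16 in NPCs. Of fatty acid genes, 1 of 8, 0 of 8, 1 of 9, 2 of 9 and 1 of 9 did, where 49.4% to 49.6% of all genes lay above. Fasn had the lowest spread of the members on each of the 5 plates by this measure, with differences of -0.54 and -0.40 log2 units on the serum plates, -0.44 under 2i, -0.71 in the knockout and -0.61 in NPCs. In the 94 cells under 2i it ran from 9.38 to 51.6 TPM with a median of 26.9. Srebf2 and Stard4 were the widest on the serum plates, at 0.73 and 0.52 and at 0.35 and 0.56 log2 units above. Fdps in NPCs stood 1.34 above, from 0 to 1212 TPM with a median of 138, and 46 of 54 NPCs held it at TPM 1 or more.

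NPCs were deposited in a table of their own, so no test was made against the mESC plates and levels are given within that table. Neural precursor markers summed to 1384 TPM there, and fibroblast markers to 146 TPM with 5 of 8 at TPM 1 or more; the part of the latter in the values was not tested. Centred on the median gene, 25 of 29 members lay above it; Acss2, Fads2, Lss and Acaca lay below. The highest plate means were 341 TPM for Scd2, 298 for Acly, 268 for Fdps, 117 for Insig1, 101 for Hmgcs1 and 99.3 for Idi1. In spread, Scd2 ran from 34.2 to 1099 TPM over the 54 cells with a median of 285, and Hmgcs1 from 1.37 to 444 with a median of 64.3. Idi1, by contrast, was under TPM 1 in 14 of the 54 cells and reached 442 in others. Insig2 and Srebf1, low in mESCs, had means of 47.7 and 28.9 TPM in NPCs, and Srebf2 had 39.8. Means and medians were far apart for these regulators; Insig2 had a median of 5.34.

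RNA polymerase II was read as counts in 1 window per gene, 1000 bases long on mm9, whose place relative to the gene is not stated. Each population had 1 library, so the ratios have no replicate check, and intervals cover counting error only. Summed over genes, the counts came to 1520254 for serum, 900928 for 2i and 1630530 for the knockout. Insig1 had the most counts of the members, 383 in serum (exact 95% Poisson interval 346 to 423), 395 under 2i (357 to 436) and 376 in the knockout (339 to 416), in the window chr5:28397451-28398451. As CPM, counts scaled to that sum, these were 252, 438 and 231, so 2i was the high library. Fasn followed with 288, 216 and 189 counts (189, 240 and 116 CPM) in chr11:120685361-120686361. Scd2 had 195, 143 and 184 counts, or 128, 159 and 113 CPM.

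Centred on the median window, the members' median log2 ratio was 0.21 under 2i and -0.12 in the knockout. Past 1.5-fold, 5 of 28 were higher and 3 lower under 2i, where 23.2% and 19.6% of 22584 windows were; in the knockout 3 were higher and 7 lower, where 20% and 15.8% were. The counting SE of a single member had a median of 0.25 for 2i and 0.22 for the knockout. The sterol arm had a median of 0.23 and the fatty acid arm 0.20 under 2i, and -0.10 and -0.24 in the knockout. Under 2i the 5 higher were Tm7sf2 (0.87 ± 0.22 counting SE), Srebf1 (0.78 ± 0.29), Stard4 (0.78 ± 0.28), Fads2 (0.67 ± 0.19) and Insig1 (0.66 ± 0.10). Ebp (-1.42 ± 0.53, 9 counts under 2i), Mvd (-0.93 ± 0.34) and Scd1 (-0.69 ± 0.24) were the 3 lower, while the RNA of the same 3 genes was called higher in bulk 2i. Across 27 members the polymerase ratio and the bulk RNA change had Pearson's r = -0.02 under 2i and 0.24 in the knockout, a description over genes that share libraries.

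**Figure D5:**
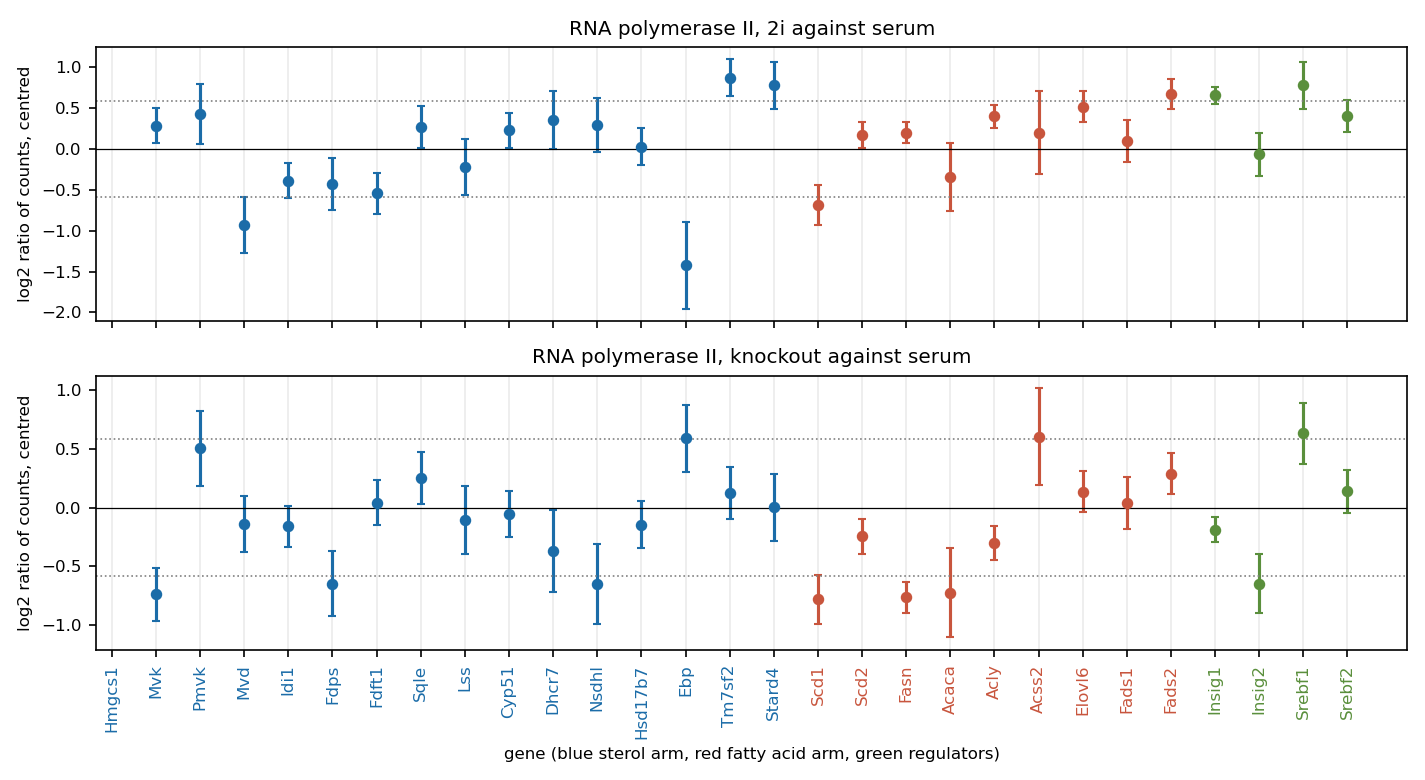
Centred log2 ratio of RNA polymerase II counts for 2i (top) and the knockout (bottom) against serum for the 28 members with a window, with the counting SE; dotted lines mark 1.5-fold. In 2i 5 members lie above the upper line and 3 below the lower one, and in the knockout 3 and 7 do.

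Much of the polymerase signal at these windows was near input, the unselected chromatin. Scaled to library totals, the members' median ratio of polymerase to input was 1.19 in serum, 1.22 under 2i and 1.04 in the knockout, with 11, 10 and 8 of 28 at 1.5-fold or more, where 17.7%, 16.1% and 16.5% of all windows were. In serum Fasn (4.57-fold), Insig1 (3.50), Scd2 (2.95) and Hsd17b7 (2.63) stood clear of input, and Acss2 (0.26) and Dhcr7 (0.35) did not. For Fasn the ratio to input was lower in 2i (2.94) than in serum, the opposite order to its CPM, while for Insig1 (4.19) and Scd2 (5.99) it was higher in 2i. Of the other members past 1.5-fold higher under 2i, Tm7sf2 hardly differed against input (1.36 in serum, 1.40 in 2i). Srebf1 was at 0.48 and 1.04, Stard4 at 0.79 and 1.06 and Fads2 at 1.64 and 1.95. Of those past 1.5-fold lower, Ebp (0.82 and 0.57) and Mvd (0.61 and 0.30) lay under input in both cultures. Scd1 was at 1.95 in serum and 0.76 in 2i. H3K27ac, a mark of active promoters and enhancers, had a centred median of 0.30 under 2i with 6 of 28 members past 1.5-fold higher and 0 lower, where 13.8% and 21.3% of 22764 windows were. Those 6 were Acss2 (1.07 ± 0.19 counting SE), Cyp51 (0.88 ± 0.09), Pmvk (0.86 ± 0.15), Tm7sf2 (0.76 ± 0.15), Fads1 (0.73 ± 0.11) and Scd1 (0.70 ± 0.11). Against input the order turned for Scd1 (1.51 in serum, 1.26 in 2i) and Tm7sf2 (0.93 and 0.72), and Acss2 lay under input in both (0.40 and 0.55). In the knockout its median was -0.05, with 3 higher and 1 lower (13.4% and 19% of windows). H3K4me3, a mark of promoters, had medians of 0.14 and -0.22, with 2 higher and 1 lower under 2i (21.3% and 14.9% of 21988 windows) and 1 higher and 3 lower in the knockout (35.5% and 9.78%).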

How the data were processed

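RNA-seq of single mESCs and NPCs, bulk RNA-seq and ChIP-seq were used. Per the submitters' processing notes, Bowtie, RSEM and mm9 were used, without versions or roles. The deposited RNA values are the natural log of TPM + 1, as their sums after reversing the log show, and the deposited ChIP values are raw read counts per window. Names turned into dates or numbers were left out (5 of 21001 in bulk, 56 of 22443 for mESCs, 29 of 18873 for NPCs, 26 of 23167 for ChIP). The rows of Acaca and Elovl6 are listed under a second name as well, with identical values.

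The members and lists were chosen with earlier results of these data known. Samples were grouped by the labels of genotype, culture and plate. Values were turned into log2(TPM + 1) and centred on the library's median over the genes tested, those with a mean TPM of at least 1. One limma 3.58.1 fit (R 4.3.3) with a trend held the 5 bulk libraries (2 residual and 5.10 prior degrees of freedom), another the 4 mESC plate means (1 and 9.77). A Benjamini-Hochberg adjusted p under 0.05 over all genes tested was called. Any member could be named; of each other list at most 4 called genes could, those with the largest centred change. ChIP ratios between cultures used counts + 1 over windows of at least 20 counts in the 3 cultures together, less the median log2 ratio over these windows. Ratios to input used counts + 1 divided by library totals. Python 3.11.15, numpy 2.4.6, pandas 2.3.3 and scipy 1.17.1 were used for cells and ChIP. No cell was left out and no doublet caller was run; per the labels, chip chambers were checked optically for a cell. On simulated data shaped like the bulk comparisons (10078 genes), 9% of simulated 2-fold and 80% of 4-fold changes were called for 2i, and 27% and 84% for the knockout. Alternatives covered scaling, pseudocount, filters, trend, duplicate names, left-out libraries and the replicate block.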

Additional observations from a re-analysis of the deposited data

How the results depend on the processing

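RNA depth is unknown, the 2i groups are single libraries or plates, and ChIP has no replicates; these limit every comparison here. In bulk 2i against serum, 13 of the 19 members called higher kept the call in each alternative that gave a p, and no member was called lower under any. Fewer held elsewhere. In the bulk knockout 8 of 13 higher and 0 of 6 lower calls did, and for 2i against the knockout 6 of 15 and 0 of 2. In the plates 4 of 20 higher and 0 of 2 lower calls held under 2i, and 6 of 13 and 1 of 2 in the knockout. Leaving out 1 bulk library gave 16 to 19 higher and 0 lower in 2i, 10 to 11 higher and 3 to 5 lower in the knockout, and 12 to 15 higher and 1 to 3 lower for 2i against the knockout. Replicate numbers in bulk did not pair the libraries: the replicate differences of serum and knockout correlated at r = -0.0252 over 10078 genes, and with a replicate block on the 4 serum and knockout libraries 12 members were called higher and 6 lower.

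With TPM as deposited, the knockout counts in bulk became 23 higher and 0 lower, and 2i against the knockout became 7 and 9. In the plates it gave 0 lower in 2i, and 24 higher and 1 lower in the knockout. Quantile normalisation gave 3 lower in the bulk knockout, 4 lower for 2i against the knockout, 4 higher and 0 lower in the 2i plate, and 8 higher and 1 lower in the knockout plate. Of all 10078 genes in bulk, 2902 and 2490 were lower in those comparisons. Of all 12394 in the plates, 784 were higher and 439 lower in 2i, and 1608 and 980 in the knockout. Lower counts became 3 (bulk knockout) and 4 (2i against knockout) with no filter, 4 (2i against knockout), 4 (2i plate) and 5 (knockout plate) with a pseudocount of 10, and 6 in the knockout plate with means of log2 values over cells. Of all calls, 42.5% were higher in bulk 2i and 37.3% in the bulk knockout, against 63.4% and 84.2% as deposited, and 40.8% and 38.3% in the plates against 95.5% and 94.4%. The causes were not tested. Centring on the median ratio and leaving out 1 serum plate were added after seeing the data; under the first 15 members were higher and 4 lower in the bulk knockout.

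Of single members called under at least 1 of the 2 settings compared, these reversed in log2 change, as deposited in the bulk knockout: Pmvk 0.50, Sqle 0.89, Lss 0.31, Hsd17b7 0.99, Stard4 0.37, Scd2 1.03, Fasn 0.76, Acaca 0.38, Acly 0.16, Insig2 0.70 and Srebf2 0.31. Scd2 also reversed with quantile normalisation (0.43) and a pseudocount of 10 (0.37), Acly with quantile normalisation (0.21) and Acss2 with a pseudocount of 10 (-0.034). For 2i against the knockout the reversals were Nsdhl -0.13, Ebp -0.75 and Stard4 -0.0103 as deposited and Acly -0.087 with quantile normalisation. In the plates they were Acss2 1.17 in 2i, and in the knockout Hmgcs1 1.33, Idi1 1.501, Hsd17b7 1.39 and Acaca 1.38 as deposited, Idi1 0.51 with a pseudocount of 10 and Insig2 -0.48 with means of log2 values.

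Co-variation moved by more than the SD of the serum plates as follows. Within the sterol arm it became 0.121 on serum plate 1 given genes detected, and 0.120 (serum plate 1), 0.0764 (knockout) and 0.103 (NPCs) with each cell centred on its mean. Within the fatty acid arm, where that SD was small, Pearson's r gave 0.0753, 0.0984, 0.103, 0.0822 and 0.0966 over the 5 plates, the partial correlation 0.0606, 0.0619, 0.0992, 0.0651 and 0.0953, and cell centring 0.0454, 0.0356, 0.105, 0.0393 and 0.0677. Requiring 50% of cells gave 0.0896 and 0.187 on the serum plates, 0.0862 in the knockout and 0.139 in NPCs. Across the arms, the partial value was 0.0759 on serum plate 1, cell centring gave 0.0661 there, 0.0528 in the knockout and 0.0864 in NPCs, and requiring 50% of cells gave 0.119 on serum plate 2 and 0.162 in NPCs. The polymerase medians ran from 0 to 0.36 in 2i and from -0.12 to 0 in the knockout. The 0.36 came from scaling to library totals, under which the median over all windows was itself 0.14. Each 0 came from subtracting input, with values below 0 set to 0. Polymerase lay under input at 12 of 28 members with serum cells, whereas 2i had 10 such members and the knockout 13.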
